A study of Mus musculus with 15 samples.

Results

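A cassette exon is an internal exon that is either kept in the mature transcript or skipped, so that a gene makes 2 forms of its RNA. The events described here are all 98 rows of a deposited table of cassette exons that compares wild-type (WT) and Mbnl3 mutant mouse forelimb. They lie in 84 genes on 20 chromosomes and involve 87 distinct exons, since 8 exons are listed more than once with slightly different splice sites. The ranks, p-values and adjusted p-values in the authors' deposited table place the number of events tested at 2834 (2821 to 2849, given their rounding). The 98 rows are therefore 3.46% of the events tested. Up to the last rank listed, 187, the authors' deposited table implies that 6.60% of tested events had an adjusted p at or under 0.05. Of these ranks, 89 are not in the table.

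Poly(A) RNA was sequenced from whole forelimbs of female embryos at day 15 of gestation, from 3 WT embryos and 3 embryos homozygous for the Mbnl3 ΔE2 allele (ΔE2/ΔE2). The labels describe the allele no further, and the series title speaks of an isoform knockout, so what Mbnl3 product remains is not known from these data. The table holds 1 total per genotype and no value per replicate. Its mutant column is headed as a knockout of Mbnl2, a related gene, and is called the mutant here on the strength of the sample labels. Mbnl3 itself has no event in the table, so the genotype could not be checked there. Of 17 marker genes looked for, the table holds 3 of 4 cartilage genes (Col2a1, Col11a2 and Acan) and 1 of 6 myofibre genes (Dysf), and no marker of epidermis, neurons or blood. Only exons selected for a change are listed, without expression levels, so these counts do not show which cell types were present. In RNA of a whole limb, a change of splicing within a cell type, fewer cells of a type and less RNA per cell cannot be told apart.

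Muscleblind proteins are RNA-binding proteins that recognise short motifs through zinc fingers and regulate the choice of alternative exons during development of muscle, heart and brain. In general they promote skipping when bound in the intron before an exon and inclusion when bound in the intron after it. Mbnl3 is known mainly from the embryo and placenta, and its gene is on the X chromosome.

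Inclusion was computed as the mean of the tags on the 2 inclusion junctions, over that mean plus the tags on the skipping junction. A tag is a sequenced fragment assigned to a junction, as an estimate that need not be a whole number. Inclusion was higher in the mutant in 53 events (54.1% of those listed) and lower in 45 (45.9%). The higher events had a median inclusion of 42.3% in WT and 63.1% in the mutant. The lower events had 54.0% in WT and 30.4% in the mutant. The change ran from 10.1 to 89.3 percentage points in size, with a median of 15.5 points, and the table holds no smaller change. It was at least 20 points in 32 events, of which 17 were higher and 15 lower, and at least 30 points in 9 events. In 24 events inclusion passed from one side of 50% to the other, 12 in each direction.

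**Figure D1:**
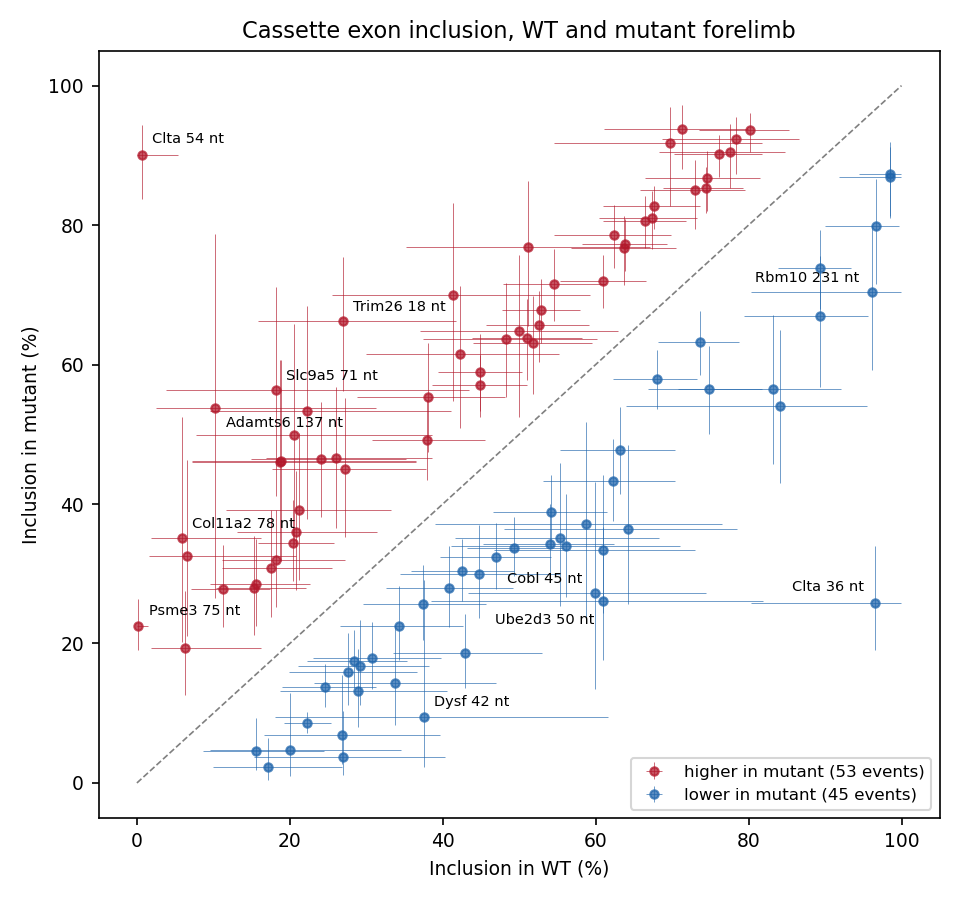
Inclusion of each cassette exon in WT (x axis, %) and in the mutant (y axis, %), with 1 point per event and lines for exact 95% binomial intervals that cover counting error alone. The 54-nt and 36-nt exons of Clta lie farthest from the diagonal, in opposite directions, and most other points run in bands 10 to 30 points above or below it.

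The depth of an event, taken as mean inclusion tags plus skipping tags, had a median of 102 in WT and 170 in the mutant. It was larger in the mutant in 93 of 98 events, with a median ratio of 1.66. The exceptions were Cobl, Col11a2, Adamts6, Cdk2 and the 207-nt form of Col2a1. WT inclusion was therefore the less precise value, with a median width of the exact 95% Clopper-Pearson interval of 16.3 points against 11.8 points in the mutant. The intervals of the genotypes were apart in 57 events and overlapped in 41. The p-values of the authors' deposited table compare the pooled tags of each genotype, and do not hold the spread between embryos.

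The largest change was in Clta, the clathrin light chain a, part of the coat of endocytic vesicles, whose known neuronal forms carry extra short exons. The table lists a 54-nt exon (mm9 chr4:44038321-44044306, plus strand, the interval including both flanking exons) and a 36-nt exon that follows it (chr4:44043087-44045725). In WT, the exon before the pair was joined directly to the 36-nt exon by 66.3 tags, and to the 54-nt exon by 0.899 tags. In the mutant the same junctions had 14.1 and 220.4 tags. Among these junctions, most tags thus led to the 36-nt exon in WT and to the 54-nt exon in the mutant. The table has no junction past both exons, so transcripts that lack both were not counted. Inclusion of the 54-nt exon was 0.673% in WT (interval 0% to 5.44%) and 90.0% in the mutant (83.8% to 94.4%).

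The second Clta event asks whether a transcript with the 54-nt exon goes on to the 36-nt exon or past it. Since the 54-nt exon was nearly absent in WT, only 0.899 WT tags could show skipping. The junction between the 54-nt and the 36-nt exon had 0 tags in WT and 32.1 in the mutant. The junction from the 54-nt exon past the 36-nt exon had 108 in the mutant. Inclusion of the 36-nt exon was 96.5% in WT (80.4% to 99.9%) and 25.8% in the mutant (19.1% to 33.9%). With the upstream junction alone the change was 22.9 points, and with the downstream junction alone -69.8 points, so that its direction depends on which junction is read. The authors' deposited table gives adjusted p = 3.39e-50 for the 54-nt event and adjusted p = 1.37e-12 for the 36-nt event (Fisher's exact test).

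Genes of membrane traffic had 13 events in 11 genes, with 8 higher and 5 lower in the mutant. C2cd5, listed under its older name 5730419I09Rik, codes for a membrane-binding protein of vesicle transport, and its 51-nt exon was included at 41.3% in WT and 70.0% in the mutant. Snx11, a sorting nexin of endosomes, had 26.1% and 46.6% inclusion of a 60-nt exon. Dysf codes for dysferlin, which takes part in the repair of muscle fibre membranes. Its 42-nt exon was included at 37.5% in WT and 9.50% in the mutant, on 21 and 26.5 tags, and the intervals overlapped (18.1% to 61.6% and 2.35% to 29.2%). Epn2, an adaptor of clathrin-coated pits, had 33.8% and 14.3% inclusion of a 36-nt exon. An exon of Lman2l, a cargo receptor of the secretory pathway, was included at 17.1% and 2.31%. Vps28, a subunit of an endosomal sorting complex, is listed with 29-nt and 127-nt forms of 1 exon, and both were higher in the mutant (66.5% and 80.6%, and 54.6% and 71.6%). Of 50 listed genes of membrane traffic, channels and transporters, 4 are in the table, with 3 events higher and 2 lower. This list and those below were chosen with earlier results of these data known. How many of their genes were tested is not known from the table, so such counts have no background. In 10 of the 12 distinct exons of the 11 genes the length was a multiple of 3.

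**Figure D2:**
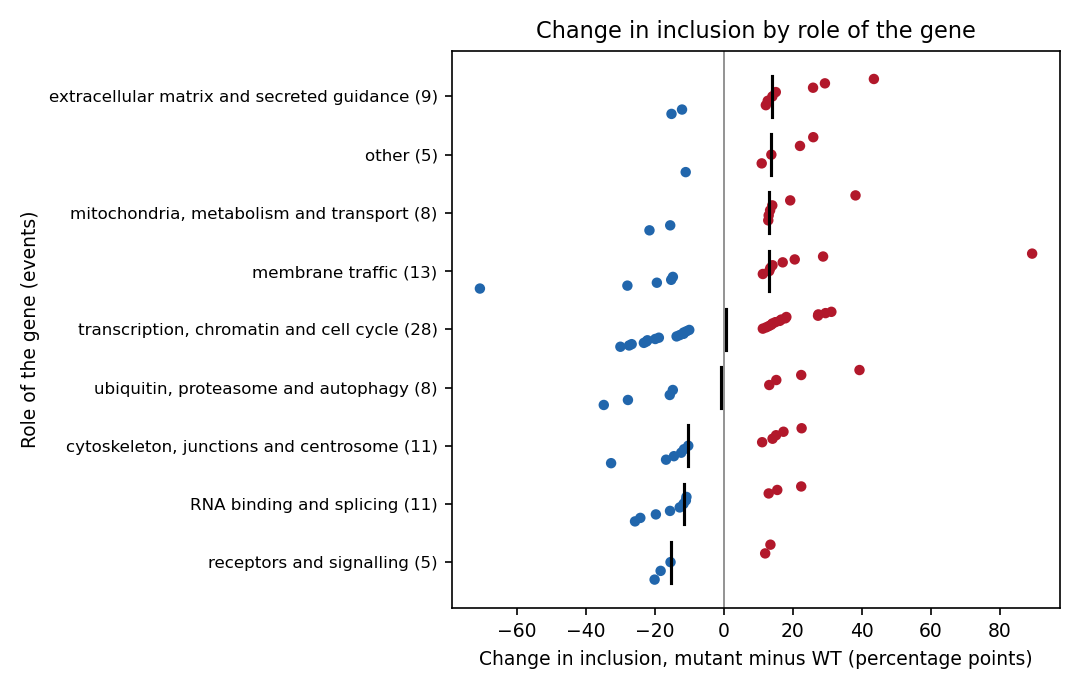
Change in inclusion (x axis, mutant minus WT, percentage points) of each event by the role of its gene (y axis, number of events in brackets), with black bars for medians. Matrix genes lie mostly to the right of 0 and genes of RNA binding and splicing mostly to the left, while every role has events on both sides.

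Genes of the extracellular matrix and of secreted guidance cues had 9 events in 7 genes, of which 7 were higher and 2 lower in the mutant. By distinct exon, 6 were higher and 1 lower, while 54.1% of all listed events were higher. The median change of the group was 14 points, and that of all higher events 15.1 points. Adamts6, a secreted metalloprotease, had the widest change of this group, from 10.3% in WT (2.55% to 31.2%) to 53.7% in the mutant (26.6% to 78.7%) for a 137-nt exon. It rested on 24.5 and 15.0 tags, and the intervals overlapped. Col11a2, a chain of the collagen XI of cartilage fibrils, had 5.88% and 35.1% inclusion of a 78-nt exon (chr17:34181764-34183446), with intervals that were apart (1.85% to 16.2% and 20.2% to 52.5%). The 60-nt exon of Abi3bp, a matrix protein, had 51.1% and 76.9%.

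Col2a1 codes for the collagen II chain that makes up most of the cartilage fibril, and its second exon is known to be included in precursors of cartilage and skipped in mature chondrocytes. The table lists it as 204-nt and 207-nt forms of an exon at chr15:97829706-97835074 on the minus strand, which differ in the downstream splice site. The 204-nt form was included at 52.8% in WT (47.7% to 57.9%) and 67.8% in the mutant (63.1% to 72.3%), and the 207-nt form at 44.9% and 58.9%. The upstream junction, shared by both forms, had 284 tags in WT and 360.1 in the mutant, while the skipping junction had 182 and 133. The downstream junction of the 204-nt form had 123 and 201 tags, and that of the 207-nt form 12.7 and 21.4. Depth was close between the genotypes here, unlike in most events, at 386 and 413 tags for the 204-nt form. Acan, the main proteoglycan core protein of cartilage, likewise had 161 and 165 tags, and its 114-nt exon was included at 15.3% and 28.0%. Inclusion was thus higher in the mutant in each of the 3 cartilage marker genes listed. Of a list of 55 cartilage and matrix genes, 6 are in the table, with 6 events higher and 2 lower. Both lower events belong to Serpinh1, the collagen chaperone of the endoplasmic reticulum, whose 44-nt exon is listed with 2 splice sites of the exon before it (54.1% in WT and 38.9% in the mutant, and 42.5% and 30.4%).

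Genes of RNA binding and splicing leaned the other way, with 3 events higher and 8 lower among 11 events in 9 genes and a median change of -11.7 points. By distinct exon, 3 were higher and 7 lower, while 45.9% of all listed events were lower. Only 2 of the 10 distinct exons of these genes had a length that is a multiple of 3, against 52 of 87 over all exons listed. Skipping or inclusion of the other 8 shifts the reading frame wherever both neighbouring exons are coding. The share was also low for mitochondria, metabolism and transport (2 of 8) and for genes with no common role (0 of 4). Among the remaining roles the lowest was 3 of 5, for receptors and signalling, and no difference between roles was tested. Rbm10, a splicing regulator, had a 231-nt exon included at 96.2% in WT (80.4% to 99.9%) and 70.4% in the mutant (59.2% to 80.0%), in intervals that were apart by less than 1 point. Lsm6, a component of the ring of proteins on U6 small nuclear RNA, had 42.9% and 18.7% for a 99-nt exon (33.5% to 52.9%, and 13.7% to 24.2%). The downstream junction of Lsm6 had 87.6 and 79.0 tags and the upstream one 4.63 and 5.96, and the change was -28.9 points with the downstream junction alone and -3.90 with the upstream one. Fxr1, a relative of the fragile X protein that is abundant in muscle, had 49.4% and 33.7% for a 92-nt exon on 259 and 506 tags. Lower inclusion was also found in Slu7 and U2af2, both needed for recognition of the 3′ splice site, in an exon listed for Slu7 as 79 nt and 82 nt, and for U2af2 in a 64-nt exon (24.7% and 13.8%). Dhx30, an RNA helicase, had 15.6% and 4.55% for a 29-nt exon. Acin1, a protein of the exon junction complex, had the largest rise of the group, with 24% and 46.4% for a 65-nt exon. Of a list of 85 RNA-binding and splicing genes, 6 are in the table, with 2 events higher and 5 lower.

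Rbm9, now named Rbfox2, codes for a splicing regulator that binds next to alternative exons, and it is known to carry a 40-nt exon used in brain and a 43-nt exon used in muscle. Both are in the table, on chr15 minus strand, between 76916497 and 76928501. The 43-nt exon was included at 54.0% in WT (45.3% to 62.4%) and 34.3% in the mutant (29.0% to 40.0%). The 40-nt exon went the other way, from 63.8% (56.8% to 70.5%) to 76.7% (71.5% to 81.3%). The junction from the upstream exon to the 40-nt exon had 248 tags in WT and 445 in the mutant, and that past both exons had 63.9 and 197. The junction from the 40-nt exon to the 43-nt exon had only 10.4 and 21.8 tags, and by that junction alone the 40-nt exon was included at 12.4% and 23.5%. The junction from the upstream exon to the 43-nt exon had 73.4 and 70.8 tags, so it was not larger in the mutant as the others were. These junctions are shared: the skipping junction of the 40-nt event is the upstream inclusion junction of the 43-nt event, and the events are not independent of each other.

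Mbnl1, the muscleblind gene most expressed in adult muscle, was the family member present in the table. Its 223-nt exon (chr3:60305186-60399685, plus strand) was included at 48.3% in WT (37.4% to 60.2%) and 63.7% in the mutant (55.3% to 71.7%), in overlapping intervals. The upstream junction had 74.0 tags in WT and 176 in the mutant, the skipping junction 41.3 and 51.0, and the downstream junction only 3.04 and 3.03. The downstream junction alone gave a change of -1.24 points, and the upstream one 13.3 points. The authors' deposited table gives adjusted p = 0.0396 for this event. With the mean of the junctions in place of the isoform tags, Fisher's exact test on the pooled tags gave p = 0.0336, above the highest p of any listed event in the authors' deposited table (0.00329). Of 51 transcripts listed here as known muscleblind targets, 3 are in the table (Mbnl1, Macf1 and Fgfr2), with 2 events higher and 2 lower. How many of the other 48 were tested is not known from the table.

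Cytoskeletal and junctional genes had 11 events in 10 genes, 5 higher and 6 lower. Macf1, a giant protein that links actin to microtubules, had events in both directions. Its 63-nt exon was included at 71.3% in WT (61.0% to 79.9%) and 93.8% in the mutant (88.1% to 97.3%), and its 18-nt exon at 73.6% and 63.3%. Flnc, the filamin of muscle, had 76.2% and 90.2% inclusion of a 99-nt exon (70.2% to 81.8%, and 86.9% to 93.0%). Dlg1, a scaffold of cell junctions, had 61.0% and 72.1% for a 99-nt exon. Cobl, a nucleator of actin filaments, had the deepest fall of this group in a 45-nt exon, from 59.9% (43.3% to 74.4%) to 27.2% (13.4% to 43.1%), in intervals that were also apart by less than 1 point. Cep170, a protein of the mother centriole, had 96.6% and 79.8% inclusion of a 150-nt exon. A list of 69 cytoskeletal and motor genes has 5 in the table, with 3 events in each direction.

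Receptors and signalling genes had 2 events higher and 3 lower. Fgfr2, a receptor for fibroblast growth factors needed for limb outgrowth, is known for a pair of mutually exclusive exons that set which ligands it binds in epithelium and mesenchyme. The table has a 148-nt exon (chr7:137341933-137344686, minus strand) without naming it, included at 63.2% in WT (55.3% to 70.4%) and 47.7% in the mutant (41.5% to 54.0%). Its upstream junction had 208 tags in WT and 238 in the mutant, and its skipping junction 61.5 and 136. The downstream junction had 2.60 and 8.62 tags, and gave a change of 1.93 points where the upstream junction gave -13.5. Arhgef12, an activator of the GTPase RhoA, had 74.8% and 56.5% for a 57-nt exon. Lphn1, an adhesion receptor now named Adgrl1, had 80.1% and 93.6% for an 18-nt exon, on 194 and 334 tags. Of 68 signalling genes listed here, Fgfr2 and Arhgef12 are the 2 in the table.

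Regulators of transcription, chromatin and the cell cycle formed the most numerous role, with 28 events in 24 genes, split 14 to 14. By distinct exon, 11 were higher and 13 lower. Top3b, a topoisomerase that acts on DNA and RNA, has 4 rows for 1 exon of 84 or 87 nt, and the widest of them ran from 22.2% in WT to 53.4% in the mutant. The 4 rows share tags and are 1 observation, and each has under 3 WT tags on its upstream junction. Zfp322a, a zinc finger protein, fell from 84.0% to 54.0% (63.9% to 95.5%, and 43.0% to 65.0%) in a 75-nt exon. Emsy, listed as 2210018M11Rik, a chromatin protein that binds BRCA2, had 60.9% and 33.4%, and Cux1, a homeodomain factor, 83.3% and 56.5%.

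A list of 77 genes of transcription, chromatin and genome maintenance has 8 in the table, with 6 events higher and 5 lower. The higher events were those of Atf2 and Bptf and the rows of Top3b, which share tags. The lower ones were in Creb1, Cux1, Emsy, Gatad2a and Zfp322a, so by distinct exon more were lower than higher. Several well-known alternative exons are in this role. Creb1, the cAMP response factor, had a 42-nt exon at 26.8% in WT (16.6% to 39.7%) and 6.91% in the mutant (2.77% to 15.4%). Lef1, a transcription factor of the Wnt pathway that works in the limb, had an 84-nt exon at 62.2% (53.1% to 70.4%) and 43.3% (37.5% to 49.3%). Max, the partner of Myc, had a 27-nt exon at 28.3% and 17.5%. Cdk2, a kinase of the cell cycle, had 20.4% and 34.5% inclusion of the 144-nt exon of its longer form, on 273 and 268 tags. The lower side also held Dedd2 (27% and 3.76%), the chromatin remodeller Atrx (89.4% and 66.9%) and Ss18 (56.1% and 33.9%). Ep400, Spen, Rad18, Ankhd1 and Atf2 were higher by 12.2 to 18.1 points. Hdgf, a nuclear growth factor, was the most deeply covered event, with 742 tags in WT and 1372 in the mutant. Its 70-nt exon was included at 22.3% (19.3% to 25.4%) and 8.54% (7.11% to 10.1%), and the authors' deposited table gives adjusted p = 8.16e-28.

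Genes of ubiquitin, the proteasome and autophagy had 8 events in 6 genes, 4 higher and 4 lower, or 4 higher and 2 lower by distinct exon. Psme3, an activator of the nuclear proteasome, held the exon closest to absent in WT. Its 75-nt exon (chr11:101177565-101178526, plus strand) was included at 0.187% in WT (0.00672% to 1.47%) and 22.6% in the mutant (19.1% to 26.4%). Its inclusion junctions had 1.20 and 0.204 tags in WT, and 116 and 122 in the mutant, while skipping had 376 and 407. The authors' deposited table ranks this event second, with adjusted p = 1.98e-51. Trim26, a ubiquitin ligase, had 26.9% (15.9% to 41.7%) and 66.2% (56.2% to 75.4%) for an 18-nt exon. Ube2d3, a ubiquitin-conjugating enzyme, had a 50-nt exon at 61.0% (38.4% to 81.9%, on 20.6 tags) and 26.1% (17.7% to 36.7%, on 90.7 tags). Cuedc2, which carries a ubiquitin-binding domain, had 3 rows for 1 exon, all lower, from 64.3% to 36.4% in the widest. Of 39 ubiquitin and proteasome genes listed here, 5 are in the table, with 3 events higher and 4 lower, the lower ones being the 3 rows of Cuedc2 and that of Ube2d3.

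Genes of mitochondria, metabolism and transport had 6 events higher and 2 lower in 8 genes. Slc9a5, a sodium-proton exchanger, had the widest change, from 18.2% (3.80% to 43.4%) to 56.3% (41.1% to 71.1%) in a 71-nt exon, on 17 WT tags, the fewest of any event. Atp5c1, the gamma subunit of the ATP synthase, has a 37-nt exon that is skipped in muscle, and its inclusion was 51.0% in WT and 63.8% in the mutant. Mocs2, of molybdenum cofactor synthesis, had 89.4% and 73.8%, and Vkorc1l1, a relative of the vitamin K reductase, 58.7% and 37.1%. Of the genes with no common role, Armcx1 had 6.61% and 32.5% and Anks3 had 69.7% and 91.7%. For Anks3 the change was 53.0 points by the upstream junction alone and 13.3 points by the downstream one. Armcx1 had 4.08 and 36.2 tags on its upstream junction, but 1.01 and 1.08 on its downstream junction, which gave a change of -0.0245 points.

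The junctions on either side of an included exon should carry like numbers of tags when the exon has 1 pair of splice sites and no other neighbour. They differed by more than 3-fold in 27 events with at least 20 tags, 18 of them higher and 9 lower. The difference was 66.8-fold in Ccdc127, 41.2-fold in Mbnl1, 39.9-fold in Fgfr2, 27.6-fold in Anks3, 26.4-fold in the 40-nt form of Tmem234 (listed as 2510006D16Rik), 26.2-fold in Clstn1 and 21.5-fold in the 40-nt exon of Rbm9. Further such events were in Armcx1, Lsm6, Nme6, Gatad2a, Mpv17, Abi3bp, C2cd5, Flnc and in listed forms of Col2a1, Top3b, Cuedc2, Clta, Zfp68, Serpinh1, Slu7 and Vps28. The direction of change was the same with the upstream junction alone in 97 of 98 events, and with the downstream junction alone in 95 of 98. The exceptions were the 36-nt exon of Clta on the upstream side, and Fgfr2, Mbnl1 and Armcx1 on the downstream side.

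**Figure D3:**
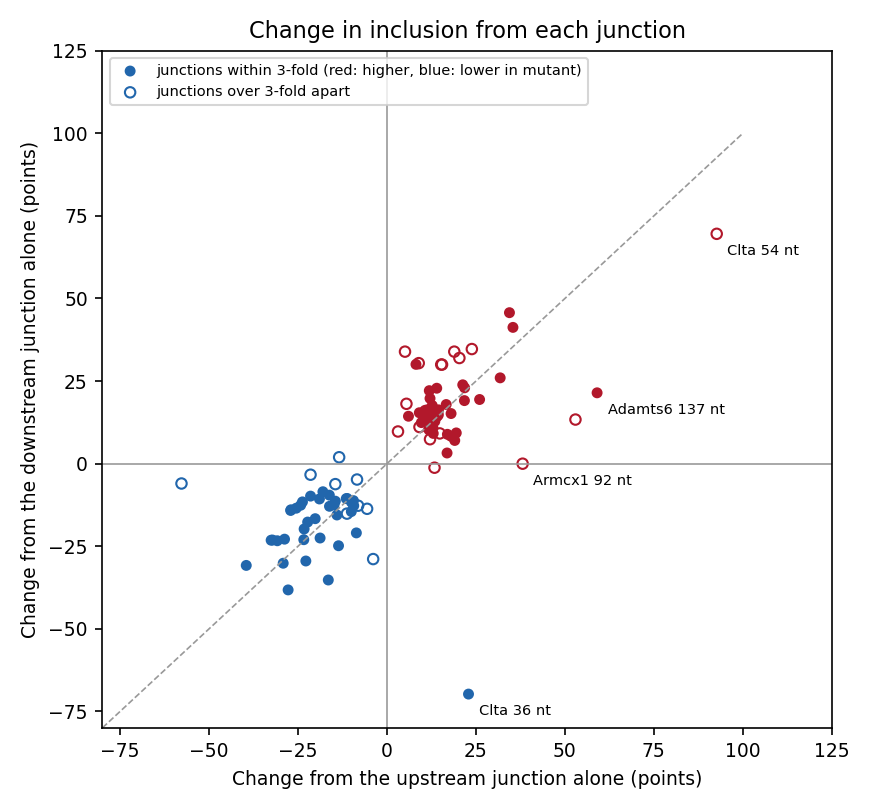
Change in inclusion (mutant minus WT, percentage points) computed with the upstream junction alone (x axis) and the downstream junction alone (y axis), for the 98 events, with open circles where the junctions differed by more than 3-fold. The 36-nt exon of Clta lies far from the diagonal at 22.9 and -69.8 points, while the events of Fgfr2, Mbnl1 and Armcx1 lie close to 0 on the y axis.

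The authors' Fisher test counts all tags of the inclusion isoform, which has 2 junctions where the skipping isoform has 1. Their p-values were recovered here from the rounded isoform tags in 98 of 98 events, and the highest p in the authors' deposited table is 0.00329. When the mean of the inclusion junctions was tested in place of the isoform tags (Fisher's exact test on the pooled tags, with no replicates), 49 of 98 events were at or under that highest p, 27 higher and 22 lower. Of the 10 largest changes in each direction, 3 of the higher and 4 of the lower were among them. The 10 higher ones include the rows of Top3b, which share tags and are counted separately here. The 49 had a median of 167 WT tags, and the others 67.0, while the median size of change was 15.2 and 15.7 points. By this exact test 96 of 98 events were at or under 0.05, and the 2 above it were Vkorc1l1 and Mtf2.

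The length of a cassette exon decides whether its use keeps the reading frame. It was a multiple of 3 in 52 of the 87 distinct exons, or 59.8% (95% Wilson interval 49.3% to 69.4%). The share was 63.8% in exons higher in the mutant (30 of 47) and 55.0% in those lower (22 of 40), with intervals that overlapped widely (49.5% to 76.0%, and 39.8% to 69.3%). The exons were short, with a median of 75 nt and a range of 16 to 759 nt. The median was 87 nt for the higher exons and 66.5 nt for the lower exons. Of 8 exons over 200 nt, 7 were higher in the mutant: those of Ankhd1, Ptpn13, Mbnl1, Pphln1, Col2a1, Mtf2 and Itch. The exception was Rbm10. In long exons such as those of Ptpn13 and Rbm10, the isoform tags behind the authors' p-values far exceeded the junction tags. Whether the selection of listed events depended on exon length was not tested. Microexons under 30 nt numbered 8, of which 3 were higher (Trim26, Lphn1 and Vps28) and 5 lower (Macf1, Mon2, Max, Dhx30 and Gatad2a). An exon listed more than once was counted by the form with the lowest deposited p, so Vps28 counts as 29 nt and not as 127 nt.

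**Figure D4:**
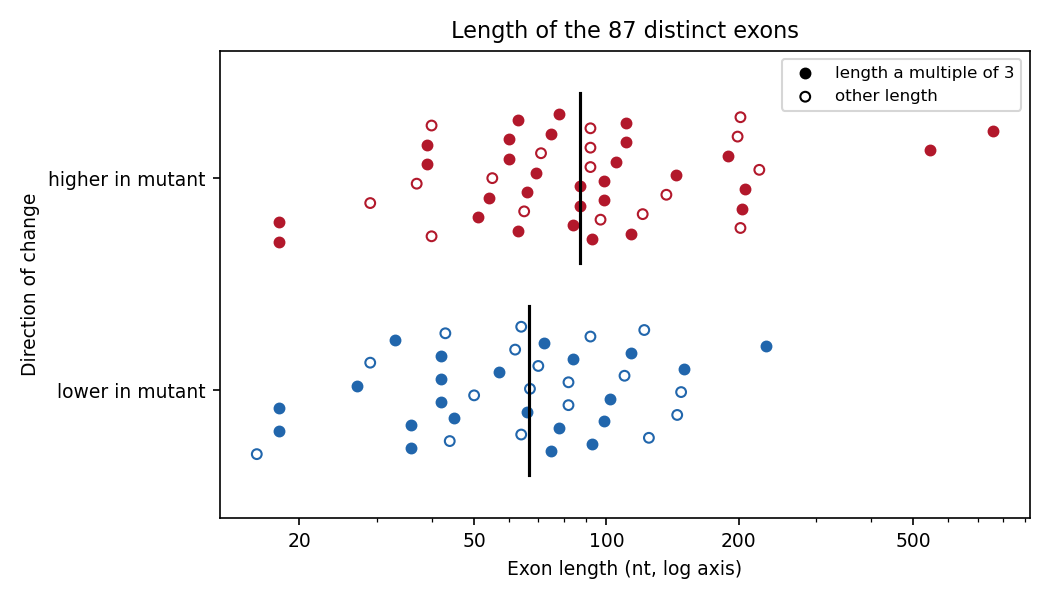
Length of the 87 distinct exons (x axis, nt, log axis) by direction of change (y axis), with filled circles for lengths that are a multiple of 3 and bars for medians. Exons over 200 nt lie almost all in the upper row, and the medians are 87 and 66.5 nt.

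The introns around the exons also differed in length by direction. The upstream intron was the longer of the pair in 30 of 47 higher exons and in 15 of 40 lower exons. Its median length was 2716 nt for the higher and 1219 nt for the lower exons, and that of the downstream intron 1480 and 1949 nt. The table lists no tested exon without a change, so these shares have no background of unchanged exons and were not tested.

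Tags from HITS-CLIP for Mbnl3 were counted at these events. In this method, RNA crosslinked to the protein is precipitated with an antibody and sequenced as tags. The libraries were of WT forelimb and ΔE2 forelimb at day 15, with 4 forelimbs of 2 embryos per replicate and 3 replicates per genotype, and of C2C12 mouse myoblasts, whose replicates are combined. ΔE2 replicates 2 and 3 shared 33916 molecules (83.7% of the tags of replicate 2), and were averaged and counted as 1 sample. The WT replicates also shared molecules, up to 32.4% of the tags of a library. The events merge into 85 separate spans of 764110 nt, which held 392 tags of WT forelimb, 338 of ΔE2 forelimb and 990 of C2C12. The libraries of these sets summed to 233845, 166925 and 550124 tags, so raw counts and densities are not on the same scale across the sets. Of all tags there, 98.3% were on the strand of the gene.

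Tags in the spans made up 1242, 1565 and 1866 per 1000000 tags of the library in WT replicates 1, 2 and 3. They made up 1769, 2147 and 2233 per 1000000 tags in ΔE2 replicates 1, 2 and 3. The groups overlapped, since ΔE2 replicate 1 lay below the highest WT replicate. The mean was 1558 ± 312 per 1000000 tags (SD, n = 3) in WT and 1979 ± 298 (SD, n = 2) in ΔE2. The difference of 421 per 1000000 tags did not exceed the spread between libraries (two-sided exact permutation test, p = 0.3, where the smallest p that 3 against 2 allows is 0.1). A lower share of tags at these events in the mutant was thus not seen. Since the Mbnl3 product that remains in ΔE2 is not known, tags of bound Mbnl3 and background tags cannot be told apart here. The combined C2C12 set had 1800 per 1000000 tags.

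**Figure D5:**
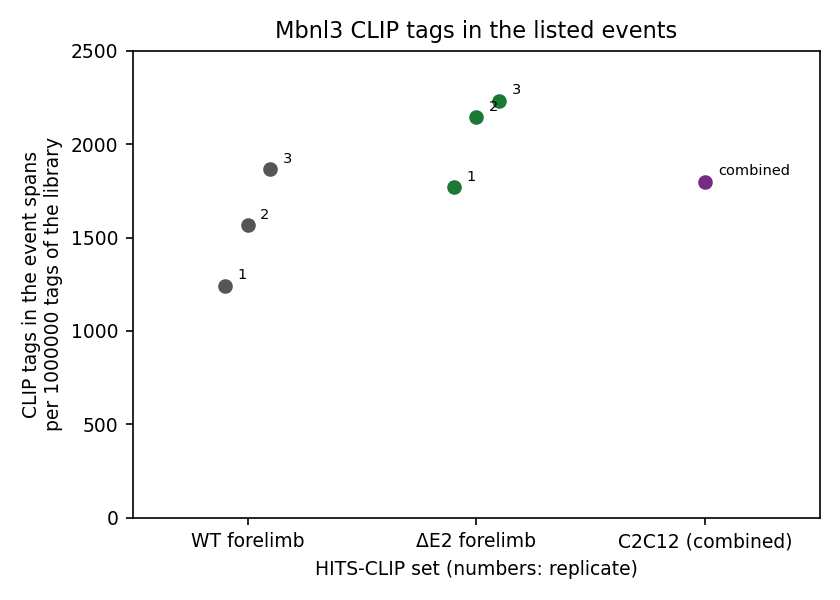
Mbnl3 CLIP tags in the spans of the listed events (y axis, per 1000000 tags of the library) in each forelimb library and in the combined C2C12 set (x axis), with numbers for replicates. WT runs from 1242 to 1866 and ΔE2 from 1769 to 2233, with 1 ΔE2 library below the highest WT library.

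At least 1 WT forelimb tag fell in the span of 70 of 98 events, 38 of the 53 higher and 32 of the 45 lower. All 3 WT replicates had a tag in 23 events, and 15 events had at least 10 WT tags. In ΔE2, 61 events had a tag, and in C2C12 87 events. The counts of the 3 sets followed the order of their library sizes, and depend on the length of the spans. Spans of unlisted exons were not counted, so there is no background for these counts. Mbnl1 had the most WT tags, with 8, 17 and 31 in replicates 1, 2 and 3, and 272 in C2C12. Its span of 94500 nt is the longest, and the tags came to 0.593 per kb in WT. Fgfr2 was the densest, with 4, 13 and 18 WT tags in 2754 nt, or 12.7 per kb, and 14, 14 and 20 tags in ΔE2. In C2C12 it had 0 of 550124 tags, which allows up to 5.45 per 1000000 tags.

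Rbm9 had 3, 7 and 12 WT tags over the span of the 43-nt exon, and 85 in C2C12. Col2a1 had 2, 7 and 11 WT tags and 2, 1 and 2 in ΔE2, with 1 in C2C12. Sec24b, of the coat of secretory vesicles, had 3, 5 and 11 WT tags, and Arhgef12 had 2, 4 and 12. The events with the widest changes were not those with the most tags. Clta had 7 WT tags over the span of the 54-nt exon and 4 over that of the 36-nt exon, and Trim26 had 4. Adamts6 and Psme3 had 0 in both forelimb genotypes and 3 each in C2C12. No tag of any set fell in 5 events, those of Cldn6, Nme6, Abi3bp, Col11a2 and Slc9a5.

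Along the events, WT tags came to 1.03 per kb around the higher exons and 0.976 around the lower exons. These densities rested on few exons, since 19 of the 26 WT tags around the higher exons lay in Mbnl1, Clta and Col2a1. Without those 3 exons the density was 0.292 per kb around the higher exons, 0.270 in their upstream introns and 0.447 in their downstream introns. Around the lower exons, 9 of 21 WT tags lay in Arhgef12, Cuedc2 and Fgfr2, and the density without them was 0.583 per kb. Over all exons, the upstream intron had 0.259 WT tags per kb for the higher and 0.404 for the lower exons, and the downstream intron 0.584 and 0.581. In ΔE2 the densities were 0.331 and 0.451 upstream, and 0.359 and 0.436 downstream. No density was scaled to library size, and the ΔE2 libraries held fewer tags, so the ΔE2 densities cannot be set directly against those of WT. These are densities over pooled tags, 42 of the 109 WT tags in downstream introns of the higher exons lie in Mbnl1 alone, and no difference between the directions was tested. In Fgfr2, 13 of the WT tags placed by zone lay in the downstream intron (859 nt), 3 around the exon (483 nt) and 1 upstream (742 nt). The ΔE2 counts there were 11, 3 and 1. The whole Fgfr2 span held 35 WT and 48 ΔE2 tags. Those placed in no zone lay at its ends, at or near the flanking exons, so the zones leave out many of its tags. In Arhgef12 the WT counts were 14 (13060 nt), 3 (241 nt) and 1 (1810 nt), so the zone around the exon was the densest. Some other lower exons had more WT tags upstream than downstream, such as the 43-nt exon of Rbm9 (16 and 5) and that of Slain2 (11 and 3).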

How the data were processed

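RNA was sequenced from forelimbs of 3 WT and 3 ΔE2/ΔE2 female embryos, and the submitters' processing notes name TopHat 1.3.2 and the mm9 build for alignment. The table of cassette exons that the authors deposited holds estimated counts of tags per isoform and junction, as 1 total per genotype, per the file headers. It also holds an odds ratio and a Fisher p-value with its adjusted p-value, per the file headers, and the change in inclusion as a fraction, WT minus mutant. The sign was turned here. How the authors estimated tags is not stated in any source at hand. Tags were rounded to whole numbers for Fisher tests and Clopper-Pearson intervals (95%), which cover counting error only. Exon and intron lengths were read from the event names in the deposited table. No event could be tested over samples. The labels call the samples biological replicates.

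For CLIP, the submitters' processing notes name Novoalign and mm9. The deposited tag score was not used. Tags overlapping an event by at least 1 nt on its strand were counted. In C2C12, tags alike in position and barcode were collapsed to 1 (550124 left of 677787). A tag was placed in a zone by its midpoint. At each end of the span, a stretch as long as both flanking exons together was left out, so tags there belong to no zone. The exact ends of the exons are not in the table, only the span and the lengths, so the zone around an exon also takes up some neighbouring intron. Densities are tags summed over the libraries as labelled, with shared molecules counted in each.

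All 84 gene IDs matched the symbol table, and 7 have newer symbols. The events, the gene lists and the roles were chosen with earlier results of these data known. Named events are the 10 largest changes in each direction, Mbnl1, the most changed members of each list, the 5 events with the most WT CLIP tags, those with unequal junctions and genes with several events. Other genes were named after their values were seen. The result of 1 named gene is not reported here. Python 3.11.15 with pandas 2.3.3 and scipy 1.17.1 was used, and counting was tested on simulated data.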

Additional observations from a re-analysis of the deposited data

How the results depend on the processing

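The counts of higher and lower events, the count of changes of at least 20 points, the median change and the share of exons that keep the frame moved by less than 1.5 times or within their error in the alternatives run for each: either junction alone, summed inclusion tags, at least 20 tags in each genotype, isoform tags and 1 event per exon. Isoform tags and, except for the share of exons that keep the frame, 1 event per exon were chosen after seeing the data. The number of events at or under the highest deposited p was 49 in place of 98 when the mean of the inclusion junctions was tested, also chosen after seeing the data. The lower number of inclusion tags in that test follows from its construction. Events with WT CLIP tags numbered 15 in place of 70 with a minimum of 10 tags, and 58 to 66 when each WT replicate was left out in turn.

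The difference in CLIP tags ran from 264 to 632 per 1000000 tags over the settings that left out 1 library each. Leaving out WT replicate 1 gave the lowest of these and leaving out ΔE2 replicate 1 the highest, where the lone averaged ΔE2 value has no spread of its own. With the 6 libraries as labelled it was 491 (exact permutation, p = 0.2), and with the replicate number as a block, which pairs libraries by number, also 491 (exact permutation, p = 0.25, the smallest 3 pairs allow). No paired analysis was possible for the exon table, because its columns are totals per genotype.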
